A study of Mus musculus with 6 samples.

Results

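Claudins and connexins, the proteins that build tight junctions and gap junctions, were examined by RNA sequencing in whole testes of E12.5 mouse embryos, the stage at which the testis cords form. The members were the rows of the deposited gene table whose symbol was Cldn, Gja, Gjb, Gjc, Gjd or Gje followed by digits alone. They numbered 43 of 24470 genes, of which 23 were claudins and 20 were connexins. The X-linked paralogs with a letter after Cldn34 and the claudin-domain genes Cldnd1 and Cldnd2 were not members. There were 6 samples. The 3 control samples had the genotype Ppp1r3c f/f, with both alleles floxed and no Cre. The 3 cKO (conditional knockout) samples had the genotype Sf1-Cre Ppp1r3c f/f, in which Nr5a1 (Sf1) regulatory sequences drive Cre in the somatic progenitors that give rise to Sertoli cells. Ppp1r3c encodes a targeting subunit through which protein phosphatase 1 favours the storage of glycogen. Both strains were kept on a C57BL/6 background. Each sample pooled 2 pairs of gonads, so differences between embryos within a pool are not seen, and the p-values measure the spread between pools.

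Claudins are small membrane proteins with several membrane spans. Their outer loops meet those of the neighbouring cell and form the strands of tight junctions, which either seal the space between cells or let chosen ions through. Connexins assemble into hexameric rings, and a pair of rings docked across the gap between cells makes a channel for ions and small metabolites. In the testis, CLDN11 and the gap junction protein Cx43, the product of Gja1, are best known from Sertoli cells, where the adult blood-testis barrier later forms. CLDN5 and the vascular connexins encoded by Gja4 and Gja5 are known from endothelial cells.

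Library totals ran from 16139487 counts in control replicate 1 to 44145158 counts in control replicate 2, so low members are least precisely measured in control replicate 1. Ppp1r3c, the targeted gene, lay between 22.1 and 24.4 CPM (counts scaled to library size) in control and between 4.71 and 5.96 CPM in cKO samples. cKO replicate 3 stood apart. It held 12534 counts of Xist, the RNA that coats the silenced X chromosome in female cells, against 6 to 41 counts in each other library. The summed level of 6 pre-granulosa genes, which mark the supporting cells of the ovary, was 268 CPM there and 82.8 to 100.2 CPM elsewhere. The summed level of 4 Y-linked genes was 220 CPM there and 258 to 277 CPM elsewhere. Whether the pool held tissue of an XX embryo was not tested. Some of the counts and fold changes below are therefore also given without cKO replicate 3. Whether groups overlap is given on all samples only. The testis label was checked with 9 Sertoli cell genes, none of them at 0, whose summed level was 1707 to 2162 CPM in control and 1617 to 2185 CPM in cKO samples.

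To find which junction genes the tissue expressed, levels were compared between genes as RPKM, that is CPM per kilobase of exon. A mean of at least 1 RPKM over the 6 samples was reached by 12 of the 43 members, 7 connexins and 5 claudins. Connexin RNA was dominated by Gja1. Its level was 108 ± 6.68 RPKM in control and 127 ± 8.14 RPKM in cKO testes (SD, n = 3 each). Gjc1, which encodes Cx45, came next at 28.0 ± 2.21 and 24.5 ± 2.07 RPKM (SD, n = 3 each). The ranges of Gja1 and Gjc1 did not overlap each other, nor did those of Gjc1 and the gene after it.

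Gja4, Gja5 and Gjb2 followed at similar levels. Their means over the 6 samples were 11.7 ± 1.23 RPKM for Gja4, 10.1 ± 2.18 RPKM for Gja5 and 9.30 ± 1.35 RPKM for Gjb2 (SD, n = 6). Neighbours in this order had overlapping ranges, so the order among these genes is not resolved. Gja4 and Gja5 together made up 9.34% to 13.7% of the summed connexin RPKM. Well below these, Gjb5 had a mean of 1.06 RPKM and Gjb1, which encodes Cx32, a mean of 0.828 RPKM.

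Claudin RNA was less abundant and more evenly divided. The summed RPKM of all claudins was 50.5 ± 5.53 in control and 49.3 ± 2.07 in cKO testes, against 182 ± 4.05 and 191 ± 11.5 for all connexins (SD, n = 3 each). Cldn5 was the highest claudin, at 19.3 ± 2.76 RPKM (SD, n = 6). Cldn11 followed at 15.1 ± 2.19 RPKM and Cldn12, a widely expressed claudin, at 8.98 ± 0.683 RPKM (SD, n = 6). Cldn5 lay above Cldn11 in 6 of 6 samples, although their ranges overlapped. These 3 genes made up 84.6% to 88.6% of the summed claudin RPKM in every library. Cldn15, which forms a cation pore in the intestine, had a mean of 2.02 RPKM, and Cldn6, a claudin of embryonic epithelia and pluripotent cells, had 1.17 RPKM.

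**Figure D1:**
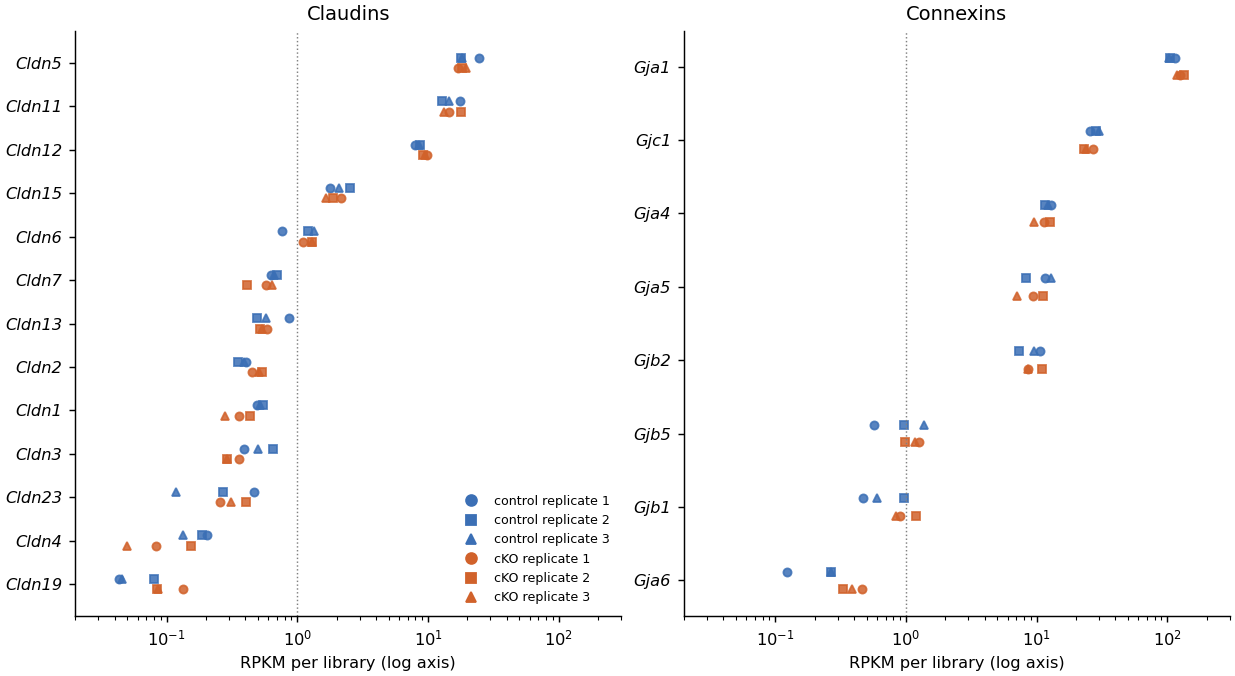
Level of the tested claudins (left) and connexins (right) reported here in each library, as RPKM on a log axis, with control libraries in blue and cKO libraries in orange. The dotted line marks 1 RPKM; Gja1 lies above 100 RPKM in all 6 libraries, and Cldn5, Cldn11 and Cldn12 lie apart from the other claudins.

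The other members were low or not seen. Cldn7, Cldn13, Cldn2, Cldn1 and Cldn3 had means between 0.412 and 0.602 RPKM, with overlapping ranges between neighbours. Cldn3, Cldn4 and Cldn7 are claudins of simple epithelia and Cldn2 forms a cation pore, and each was below 1 RPKM. Cldn23, Cldn19 and Gja6 were also tested and below 1 RPKM. Cldn9, Cldn10, Cldn20, Gja3, Gjb6 and Gjd4 did not pass the filter on low counts. Below 3 counts in every library were 13 members, among them Cldn8, Cldn14, Cldn16, Cldn17, Cldn18, Cldn22, Cldn24, Gja10, Gjc3, Gjd2, Gjd3 and Gje1. Of these, 6 had no count at all, among them Cldn16, Cldn17, Cldn22, Cldn24 and Gje1. A count of 0 allows up to 3 counts, which is 0.0679 to 0.185 CPM depending on the library, for counting error alone.

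Several members lie next to each other in the genome (build mm10), and some neighbours differed widely in level. On chromosome 14, Gjb2 (57098602 to 57104702) had 9.30 RPKM between Gja3 with 0.0191 RPKM and Gjb6 with 0.0501 RPKM. Cldn6 and Cldn9 on chromosome 17 face each other on opposite strands with 0.137 kb between them, and the counting used strand. Their means were 1.17 and 0.0312 RPKM. Cldn13, Cldn4 and Cldn3 on chromosome 5 were all below 1 RPKM.

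The start sites of the most abundant members were inspected in RefSeq sequence (GRCm38.p6, the same coordinates as mm10). A promoter was found for 31 of the 43 members. Gjc1, the connexin next to Gja1 in level, had none and is not shown. The 250 bases before the start site are shown for Gja1 and for the 3 leading claudins, because these 4 genes make up most of the junction RNA described above. Capitals mark a GC box (GGGCGG) or a CCAAT box (CCAAT) on either strand. The windows are chr10:56377050-56377299 on the plus strand for Gja1, chr16:18776597-18776846 on the plus strand for Cldn5, chr3:31149670-31149919 on the plus strand for Cldn11 and chr5:5514977-5515226 on the minus strand for Cldn12.
Gja1: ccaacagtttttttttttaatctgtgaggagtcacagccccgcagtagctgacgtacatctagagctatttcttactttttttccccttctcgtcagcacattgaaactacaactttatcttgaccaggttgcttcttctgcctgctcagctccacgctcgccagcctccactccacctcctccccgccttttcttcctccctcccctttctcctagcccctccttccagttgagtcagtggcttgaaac
Cldn5: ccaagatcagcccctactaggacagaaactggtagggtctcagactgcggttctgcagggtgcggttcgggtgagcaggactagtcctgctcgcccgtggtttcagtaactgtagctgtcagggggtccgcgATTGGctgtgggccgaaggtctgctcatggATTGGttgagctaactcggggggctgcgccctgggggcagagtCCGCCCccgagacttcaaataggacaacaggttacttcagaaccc
Cldn11: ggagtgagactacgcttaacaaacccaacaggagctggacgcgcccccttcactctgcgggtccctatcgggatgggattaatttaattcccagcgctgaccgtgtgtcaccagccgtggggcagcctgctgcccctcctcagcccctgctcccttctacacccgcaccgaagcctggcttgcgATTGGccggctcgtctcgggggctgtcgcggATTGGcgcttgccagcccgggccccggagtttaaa
Cldn12: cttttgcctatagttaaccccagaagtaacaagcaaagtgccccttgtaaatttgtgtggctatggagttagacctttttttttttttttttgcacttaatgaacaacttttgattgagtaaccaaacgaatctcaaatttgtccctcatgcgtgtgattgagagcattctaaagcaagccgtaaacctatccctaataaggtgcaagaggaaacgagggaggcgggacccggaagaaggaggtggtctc
The Cldn5 window held 1 GC box and 2 CCAAT boxes, and the Cldn11 window held 2 of the latter. Neither motif was found in the windows of Gja1 and Cldn12. Among all 18205 genes with a promoter sequence, 43.0% of windows of this length held the GC box and 36.3% held the CCAAT box. The GC box was present in 6 of 10 members at 1 RPKM or above with a promoter, and in 1 of 9 members below 3 counts in every library. The CCAAT box was present in 3 of 10 and 4 of 9. The letters TATAAA were present in 1 of each, against 12.1% of all windows. The ratio of observed to expected CpG had a median of 0.525 in the higher and 0.365 in the lower set, against 0.541 over all genes. The 12 other members with a promoter, between these sets in level, had a median of 0.278, so the ratio did not follow level. These are descriptions of letters in a short window.

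To ask whether loss of Ppp1r3c in the somatic lineage altered junction genes, cKO was compared with control testes. The filter on low counts left 24 members in the test, 13 claudins and 11 connexins, and the test covered 15577 genes. No member had an edgeR adjusted p (FDR, adjusted over all genes tested) below 0.05, and none was called by DESeq2 on all samples. The background share of called genes was 0.0385% for edgeR and 0.779% for DESeq2. The lowest edgeR FDR of a member was 0.377. At an unadjusted p under 0.05, edgeR had 5 members, 2 higher (background 5.56%) and 3 lower (background 5.8%) in cKO testes. The 5 made up 20.8% of the tested members, where 11.4% of all genes tested reached the same threshold. DESeq2, which gave a p to 37 members, had 3 (8.11%, background 8.25%). The edgeR count was 2 without cKO replicate 3 (background 7.83%) and also 2 without control replicate 3 (background 8.55%). It was also 2 with the replicate number as a block (background 6.32%), although no pairing by replicate number was seen.

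The medians of the families lay on opposite sides of 0. The median log2 fold change was -0.14 over the tested claudins and 0.18 over the tested connexins, beside -0.0034 over all genes. With the stricter filter on low counts both medians changed sign, to 0.04 and -0.04, so no direction is read from either. The groups did not overlap for 7 of 24 members (29.2%, background 15.6%), of which 5 were higher (background 8.42%) and 2 lower (background 7.17%) in cKO testes. These were Gja1, Cldn12, Cldn2, Cldn19 and Gja6 on the higher side, and Cldn1 and Cldn3 on the lower side. Cldn19 and Gja6 had at most 23 and 37 counts in any library. The margin of Cldn19 was narrow, between 0.340 CPM in control replicate 2 and 0.362 CPM in cKO replicate 2. For any single gene in 3 against 3 samples, the smallest p of an exact permutation test, taken on both sides, is 0.1.

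**Figure D2:**
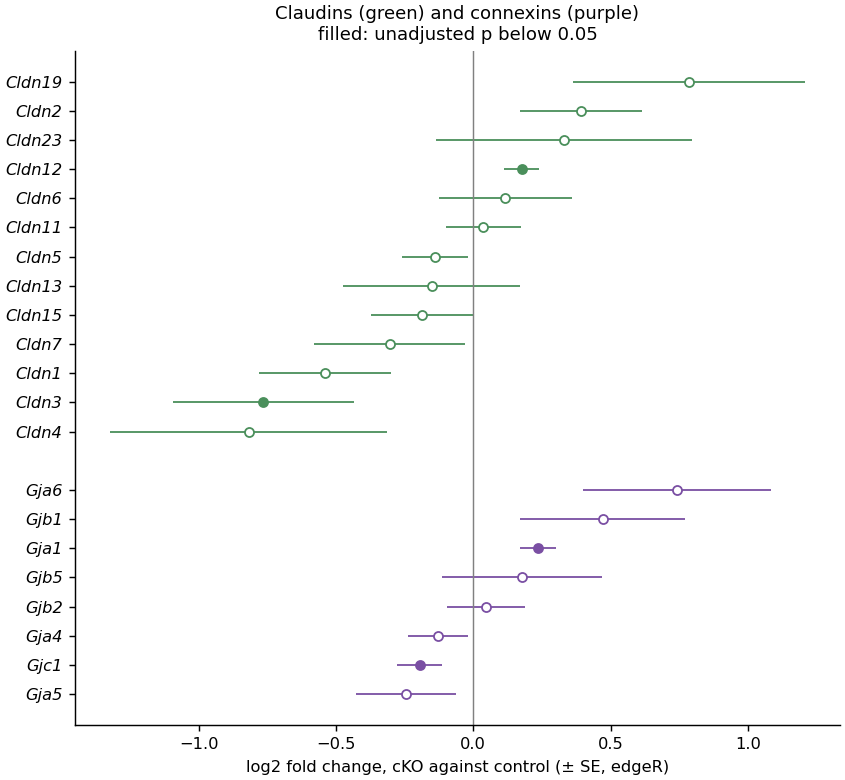
Log2 fold change of cKO against control testes (x axis, edgeR) for the tested claudins (green) and connexins (purple) reported here, with bars of 1 SE. Filled points have an unadjusted p under 0.05 and none has an FDR under 0.05; Gja1 and Cldn12 have the shortest bars, and Cldn4, Cldn19 and Cldn23, all of low counts, have the longest.

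Gja1 was the member of lowest p. Control replicates 1 to 3 had 353, 322 and 315 CPM, and cKO replicates 1 to 3 had 385, 415 and 366 CPM. All cKO samples lay above all control samples. The log2 fold change came to 0.24 (SE 0.0662, edgeR p 0.00568, FDR 0.377), a ratio of 1.18. It was 0.28 without cKO replicate 3 (edgeR FDR 0.633) and 0.24 by DESeq2, whose FDR was 0.0889. DESeq2 fits without single samples were chosen after the data were seen. Of these, only the fit without control replicate 1 called Gja1 (FDR 0.0171, background 2.15%).

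The share of Gja1 in the connexin RPKM was 59.0% ± 3.09 in control and 66.2% ± 1.53 in cKO testes (SD, n = 3 each). Its lowest cKO value, 64.5%, lay above its highest control value, 62.1%. Relative to the summed Sertoli cell genes, Gja1 was at 163, 189 and 171 CPM per 1000 CPM of the list in control and at 209, 190 and 226 in cKO samples. The groups remained apart on this scale by a narrow margin, between 189 in control replicate 2 and 190 in cKO replicate 2. Gja1 is also known from other somatic cells, so the list is only a partial reference.

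Cldn12 was higher by a small amount. Its CPM were 31.6, 34.4 and 33.5 in control and 38.9, 36.3 and 37.5 in cKO samples, without overlap. The log2 fold change was 0.18 (SE 0.0645, edgeR p 0.0225, FDR 0.385), and without cKO replicate 3 it was also 0.18 (edgeR p 0.0592, FDR 0.649). Per 1000 CPM of the summed Sertoli cell genes the Cldn12 groups overlapped, with 14.6 to 20.2 CPM in control and 16.6 to 23.2 CPM in cKO samples. Gjc1 was lower, at 69.5, 77.6 and 81.2 CPM in control and 73.0, 62.3 and 64.6 CPM in cKO samples. Its groups overlapped through control replicate 1 and cKO replicate 1. The log2 fold change of Gjc1 was -0.20 (SE 0.0824, edgeR p 0.0410, FDR 0.420), and -0.17 without cKO replicate 3 (edgeR p 0.0970, FDR 0.688). On the Sertoli cell scale Gjc1 also overlapped, with 32.1 to 45.5 CPM in control and 28.5 to 40.0 CPM in cKO samples.

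Cldn3, also at an unadjusted p under 0.05, had 8, 36 and 26 counts in control against 18, 13 and 12 counts in cKO libraries, or 0.493, 0.815 and 0.634 CPM against 0.449, 0.362 and 0.363 CPM. The groups were apart, by a narrow margin between control replicate 1 and cKO replicate 1. The log2 fold change was -0.76 (SE 0.330, edgeR p 0.0447, FDR 0.432), and -0.71 without cKO replicate 3 (edgeR p 0.108, FDR 0.689). The standard error of Cldn3 was several times that of Gja1, and the part of its low counts in this was not tested.

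The summed level of 9 germ cell genes was 476, 722 and 757 CPM in control replicates 1 to 3 against 485, 222 and 364 CPM in the cKO replicates. All 9 germ cell genes were lower in cKO testes, and none was at 0. Of these, 8 had an unadjusted edgeR p under 0.05 (background 5.8% for lower genes). None had an edgeR FDR under 0.05, where the background was only 0.0385%. Dividing by this list moves the mean log2 difference of every gene by the same amount, which is set by the fall of the list. A change of sign on that scale is therefore not a finding about a single gene. Relative to the list the mean log2 difference of Cldn3 between cKO and control was 0.21, in place of -0.70 in CPM. For Gjc1 it was 0.72 in place of -0.19, with 107 to 146 CPM per 1000 CPM of the list in control and 150 to 281 CPM in cKO samples. In bulk samples fewer cells of a type and less RNA per cell cannot be told apart, and the part of germ cells in these differences was not tested.

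Cldn11, the claudin of Sertoli cells, stood at 33.1, 23.8 and 27.1 CPM in control and at 27.3, 33.4 and 24.7 CPM in cKO samples. The groups overlapped almost fully, with a log2 fold change of 0.04 (SE 0.137, FDR 0.940 in edgeR). Relative to the summed Sertoli cell genes its level was nearly the same in all samples, with 13.9 to 15.3 CPM per 1000 CPM of the list.

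Among genes known from endothelial cells, Cldn5 had 34.9, 25.4 and 25.9 CPM in control and 23.9, 26.0 and 27.7 CPM in cKO samples. Only control replicate 1 stood out, and the log2 fold change of -0.14 (SE 0.121, FDR 0.680 in edgeR) was 0.01 without it. Gja4 lay between 19.6 and 21.7 CPM in control and between 16.1 and 21.4 CPM in cKO samples, the lowest value being that of cKO replicate 3. Its log2 fold change was -0.13 (SE 0.108, FDR 0.671 in edgeR), and -0.03 without that library. Gja5, an arterial connexin, lay between 26.0 and 40.0 CPM in control and between 22.1 and 34.6 CPM in cKO samples. For Gja5 the log2 fold change came to -0.24 (SE 0.183, FDR 0.627 in edgeR), and -0.09 without cKO replicate 3. The summed level of 7 endothelial genes was 645 to 722 CPM in control and 630 to 736 CPM in cKO samples, so this reference overlapped between the groups.

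**Figure D3:**
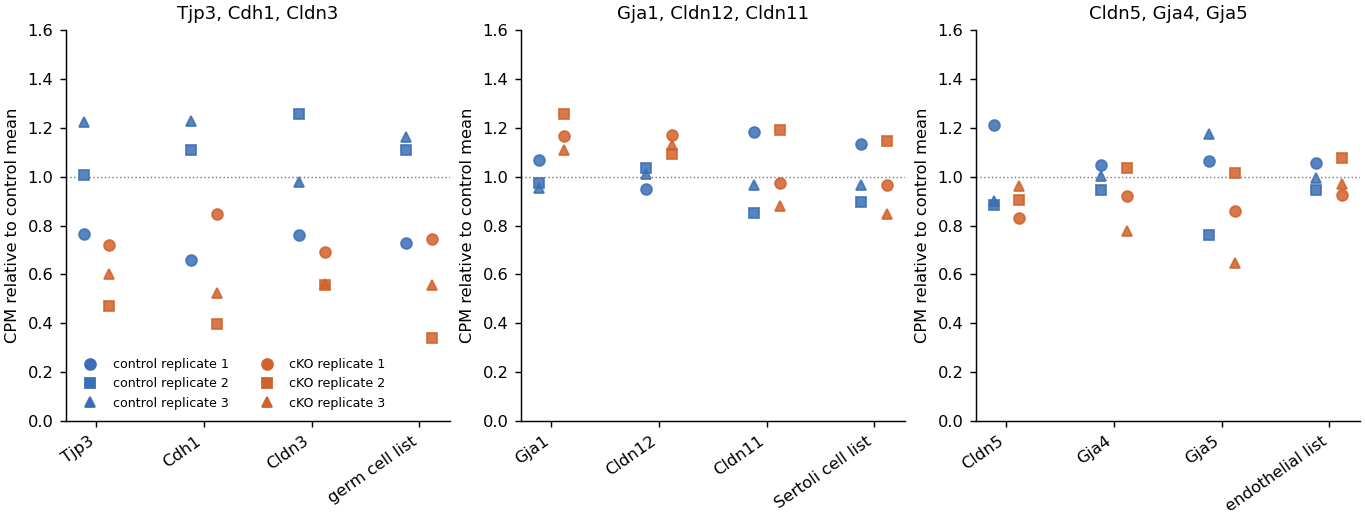
CPM of junction genes and summed CPM of 3 marker lists, each divided by its control mean (y axis), for the 3 control (blue) and 3 cKO (orange) libraries. Tjp3, Cdh1 and Cldn3 are lowest in cKO replicate 2, as is the germ cell list, the Gja1 and Cldn12 groups are apart within a narrow range, and Cldn11 is highest in control replicate 1 and cKO replicate 2, as is the Sertoli cell list.

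The remaining members named here had unadjusted p above 0.05. Gjb2, which encodes Cx26, was at 22.1 ± 3.93 CPM in control and 22.7 ± 3.29 CPM in cKO testes, a log2 fold change of 0.05 (SE 0.143, FDR 0.924 in edgeR). Cldn15 was at 3.95 ± 0.725 and 3.51 ± 0.440 CPM, and Cldn6 at 1.10 ± 0.305 and 1.23 ± 0.109 RPKM (SD, n = 3 each). Their log2 fold changes were -0.19 (SE 0.189) and 0.12 (SE 0.241). For Cldn7, Cldn13 and Cldn2 the values were -0.30 (SE 0.275), -0.15 (SE 0.323) and 0.39 (SE 0.223). Of these only Cldn2 had groups that did not overlap. The edgeR FDR of these 5 claudins lay between 0.525 and 0.890.

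The partners of claudins in tight junctions were examined in a list of 35 genes, the scaffolds, other transmembrane proteins and polarity proteins of the junction. Of these, 34 were tested and 30 reached 1 RPKM. By level the list was led by Ybx3, a regulator that binds the scaffold ZO-1, at 68.2 RPKM, and by the adhesion molecule F11r (JAM-A) at 56.2 RPKM. Tjp1, which encodes ZO-1, had 40.7 RPKM, the paracingulin gene Cgnl1 had 34.6 RPKM, and Lsr of tricellular junctions had 30.5 RPKM. Ocln, which encodes occludin, was low, at 0.413 RPKM; it was chosen for mention after its value was seen.

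None of the 34 partners was called by edgeR or, on all samples, by DESeq2. At an unadjusted edgeR p under 0.05 there were 11 (32.4%, background 11.4%), 7 higher and 4 lower in cKO testes, and without cKO replicate 3 there were 3 (background 7.83%). The median log2 fold change of the list was 0.07. Tjp3, which encodes ZO-3, had the lowest p, with 3.20, 4.21 and 5.12 CPM in control and 3.02, 1.97 and 2.51 CPM in cKO samples. The log2 fold change of Tjp3 was -0.76 (SE 0.229, FDR 0.377 in edgeR). The polarity gene Crb3 had 2.77, 2.44 and 1.93 CPM in control and 1.75, 0.862 and 1.15 CPM in cKO samples, a log2 fold change of -0.90 (SE 0.291, FDR 0.377 in edgeR). Neither gene's groups overlapped. On all samples the DESeq2 FDR was 0.157 for Tjp3 and 0.216 for Crb3. In fits chosen after the data were seen, DESeq2 called Tjp3 without control replicate 1 (FDR 0.0489, background 2.15%). Likewise it called Crb3 without cKO replicate 1 (FDR 0.0496, background 2.07%). Per 1000 CPM of the germ cell list the mean log2 differences of Tjp3 and Crb3 were 0.18 and -0.06. That scale moves every gene by the same amount, and the part of germ cells was not tested.

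On the higher side, the log2 fold change of Crb2 was 0.32 (SE 0.115, FDR 0.382 in edgeR), with Magi2 at 0.42 (SE 0.156, edgeR FDR 0.386) and Amotl1 at 0.14 (SE 0.0517, edgeR FDR 0.382). In cKO replicate 3 Crb2 stood at 56.4 CPM, and it did not exceed 43.2 CPM elsewhere. Without this library the values were 0.17, 0.27 and 0.14, with edgeR p of 0.0820, 0.0976 and 0.0575. Cgnl1 was likewise highest in cKO replicate 3, at 275 CPM against 211 to 238 CPM elsewhere. The log2 fold change of Cgnl1 was 0.18 (SE 0.0692, FDR 0.398 in edgeR) on all samples and 0.10 (SE 0.0624) without that library. The pre-granulosa genes given above were highest in the same library as Crb2, Magi2 and Cgnl1, and their part was not tested.

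**Figure D4:**
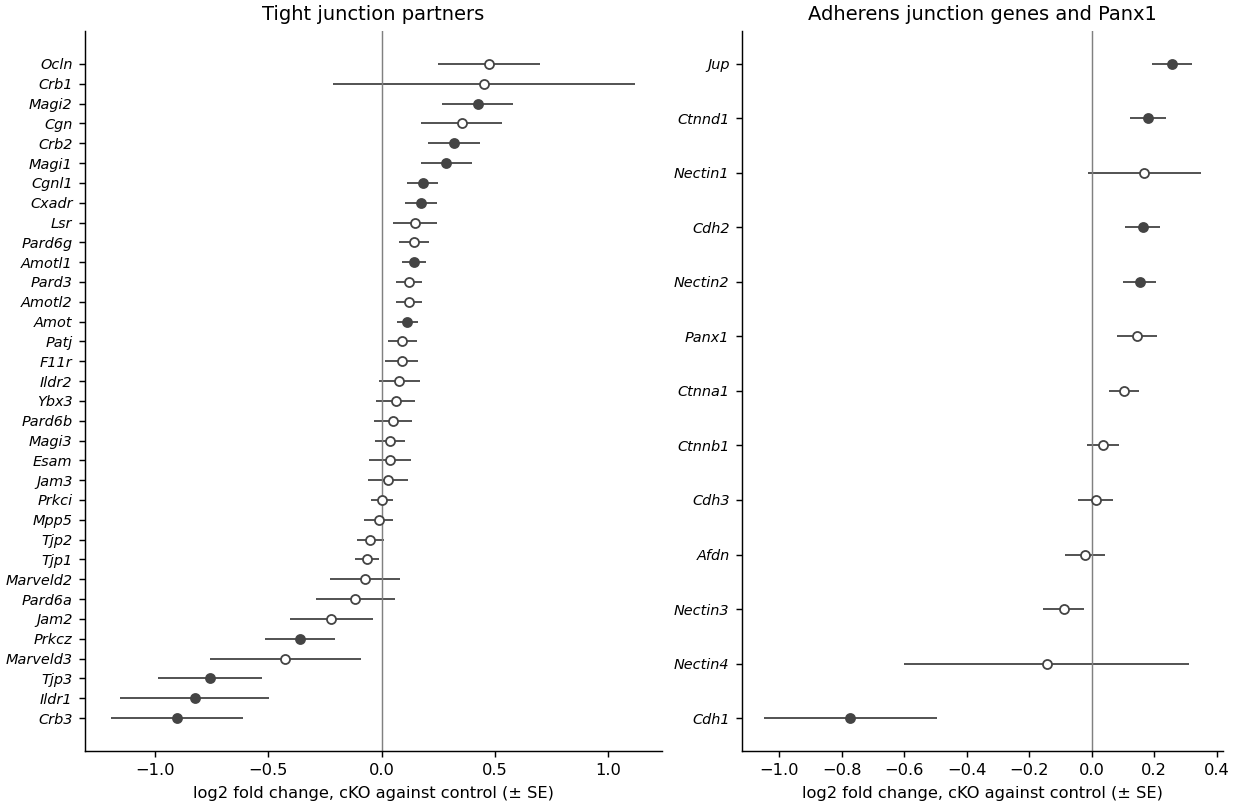
Log2 fold change of cKO against control testes (x axis, edgeR) with bars of 1 SE for tight junction partners (left) and for adherens junction genes with Panx1 (right). Filled points have an unadjusted p under 0.05; Tjp3, Ildr1, Crb3 and Cdh1 lie furthest to the lower side, and none of the genes has an FDR under 0.05.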

How the data were processed

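TruSeq stranded mRNA libraries were aligned by the authors to mm10 with STAR and counted per RefSeq Curated gene with featureCounts in reverse-stranded mode. The submitters' processing notes name Subread 1.5.0-p1. The deposited values are raw counts, with no normalization. Library totals were 16139487 to 44145158. The members and gene lists, and the rule for naming genes, were chosen with earlier results of these data known. Named were members at an unadjusted p under 0.05, the 8 claudins and 6 connexins of highest RPKM, the 2 of lowest p in each family, and, of each partner list, called genes, the 5 of lowest p and the 5 of highest RPKM. Some members are counted but not reported here by name.

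Genes passing filterByExpr (minimum count 10) were fitted with edgeR 4.0.16 in R 4.3.3 (TMM, quasi-likelihood F-test in its legacy form, cKO against control, no covariate), with Benjamini-Hochberg adjustment over all genes tested. The SE was derived from the F statistic. CPM used TMM-scaled library sizes, and RPKM also used the exon length of RefSeq-matched GENCODE M21 transcripts, which were found for all 43 members. Other gene models would change RPKM between genes, not between groups. DESeq2 1.42.0 and limma-voom (limma 3.58.1) were alternatives. The fits were tested on simulated counts. Replicate libraries of a group differed by more than sampling noise (chi-square per gene 8.75 to 16.1), and none was merged.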

Additional observations from a re-analysis of the deposited data

How the results depend on the processing

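No member and no tight junction partner was called by edgeR under any filter, scaling or left-out sample, by limma-voom, or by DESeq2 on all samples. DESeq2 gave an adjusted p to only 16 members on all samples. Without control replicate 3 that number was 1, so the lack of calls in that fit says little. DESeq2 without single samples, chosen after the data were seen, called 0 to 2 members, with 2 (Gja1 among them, background 2.15%) without control replicate 1 and 1 without cKO replicate 1 (background 2.07%). Among partners and adherens junction genes it called Tjp3, Prkcz and Jup without control replicate 1, and Crb3, Ctnnd1 and Jup without cKO replicate 1. The count of members at an unadjusted p under 0.05 was 5 by edgeR (background 11.4%), 3 by DESeq2 (background 8.25%) and 2 with the replicate block (background 6.32%). It was 6 by limma-voom and by the newer form of the quasi-likelihood test. Without single samples it was 2 to 4 by edgeR and 1 to 4 by DESeq2. By edgeR it was 4 without control replicate 1 (background 13.2%) and 2 without cKO replicate 3 (background 7.83%). Counts given here without a background are not read as an excess. The cause of the differences between these counts was not tested.

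Deviations of same-numbered samples correlated at -0.203, -0.266 and -0.13, so no pairing by replicate number was seen. Samples of different numbers were not compared in this way, so the check is a limited one. The replicate block called no member.

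Of 192 alternative values of the named members, 185 kept their direction, and none of these had an FDR under 0.05. Among them, the DESeq2 values of Cldn3 and Cldn13 had no FDR. The other 7 changed sign, each when a sample was left out. Cldn11 was at -0.08 without control replicate 2 and -0.0931 without cKO replicate 2 (range -0.09 to 0.16), and Gjb2 at -0.10 and -0.08 without the same samples (range -0.10 to 0.15). Without control replicate 1, Cldn13 was at 0.0521 (range -0.34 to 0.05), Cldn5 at 0.00944 (range -0.23 to 0.01) and Cldn6 at -0.0509 (range -0.05 to 0.27). No direction is read from these 5. The claudin median ranged from -0.21 to 0.01 and the connexin median from 0.08 to 0.19 without single samples. The number of members at 1 RPKM was 11 or 12 without single samples, 15 at 0.5 RPKM and 18 with TPM in place of RPKM. The tested members below 1 RPKM had standard errors above 0.2 on the log2 scale. The parts of depth and of spread between pools in these errors were not tested.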

Other observations

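Other junction genes were measured in the same libraries. Of 12 adherens junction genes, which join cells below the tight junction, 11 reached 1 RPKM and none was called by edgeR or, on all samples, by DESeq2. At an unadjusted edgeR p under 0.05 there were 5 (background 11.4%), 4 higher and 1 lower in cKO testes, and without cKO replicate 3 there were 2 (background 7.83%). The list was led by Ctnnb1 (beta-catenin) at 356 RPKM, Ctnna1 (alpha-catenin) at 121 RPKM and Ctnnd1 (p120-catenin) at 82.9 RPKM. The desmosome and adherens junction gene Jup (plakoglobin) had 164, 156 and 146 CPM in control and 175, 199 and 183 CPM in cKO samples. Its groups did not overlap, and its log2 fold change was 0.26 (SE 0.0645, edgeR p 0.00291, FDR 0.377). Without cKO replicate 3 it was 0.27 (edgeR FDR 0.633). Ctnnd1, Nectin2 and Cdh2 (N-cadherin) had log2 fold changes of 0.18 (SE 0.0578), 0.15 (SE 0.0524) and 0.16 (SE 0.0565), each without overlap and with an edgeR FDR of 0.377 to 0.380.

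Cdh1, which encodes E-cadherin and is known from early germ cells, was at 31.0, 52.2 and 57.7 CPM in control and at 39.8, 18.7 and 24.7 CPM in cKO samples. The groups overlapped through control replicate 1, with a log2 fold change of -0.77 (SE 0.276, FDR 0.382 in edgeR). Per 1000 CPM of the germ cell list the mean log2 difference was 0.13, on a scale that moves every gene by the same amount. Among pannexins, which form channels without docking to a neighbouring cell, Panx1 was at 28.3 ± 1.22 CPM in control and 31.2 ± 0.369 CPM in cKO testes (SD, n = 3 each; log2 fold change 0.15, SE 0.0650, edgeR FDR 0.440). Panx2 had a mean below 1 RPKM, and Panx3 had no count in any library.

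Cingulin, the Cgn product, is a cytoplasmic tight junction protein. It was chosen for mention after its values were seen. The other 5 libraries held 60.1 to 67.4 CPM of Cgn and cKO replicate 3 held 110 CPM, and its log2 fold change was 0.35 (SE 0.177, edgeR FDR 0.477) with that library and 0.07 (SE 0.0759, edgeR FDR 0.861) without it.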
